A study of Mus musculus with 8 samples.

Results

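The SLAM family consists of receptors of the immunoglobulin superfamily that sit side by side on the surface of T cells, NK cells and other blood cells. Most of them bind a copy of themselves on a neighbouring cell, while CD244 binds CD48. The tails of most of them carry tyrosine motifs that recruit SAP, a small adaptor made of a single SH2 domain. CD48 has no such tail, being anchored by a lipid, and SLAMF7 is known to signal through the related adaptor EAT-2. SAP brings in the kinase FYN, and in its place phosphatases such as SHP-1, SHP-2 and SHIP1 can bind. The family is known for its part in T cell help to B cells, in killing by CD8 T cells and in the development of innate-like T cells. In NOD mice, the strain that becomes diabetic spontaneously, T cells enter the pancreas and attack the insulin-producing beta cells.

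The genes described are 9 of the 32285 genes counted. The 7 receptors are Slamf1 (CD150), Slamf6 (Ly108), Slamf7 (CRACC), Cd84 (SLAMF5), Ly9 (CD229), Cd48 (SLAMF2) and Cd244a (2B4). The 2 adaptors are Sh2d1a, which encodes SAP, and Sh2d2a, which encodes the T cell-specific adaptor TSAd. They were picked by symbol, and all 9 were found in every library. In the GENCODE M21 annotation of GRCm38 the 7 receptor genes lie within chr1:171559193-171953170, in the order Cd244a, Ly9, Slamf7, Cd48, Slamf1, Cd84 and Slamf6. Sh2d2a lies at chr3:87846755-87855722 and Sh2d1a at chrX:42502453-42529330. The gene models of Cd244a and Ly9 overlap on opposite strands. The strand setting of the authors' counting is not given in the sources used here, so reads of these 2 genes cannot be fully told apart.

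The data are 8 single-cell RNA libraries of T cells sorted from pancreas as CD45+ CD3+ TcR-beta+, frozen, and prepared with 10x Genomics 3′ version 2 chemistry. All come from NOD mice labelled female and 3 to 4 months old in one label, 3 to 5 months in another. One library is labelled active, from mice with over 600 mg/dl of blood glucose, and one onset, from mice at 250 mg/dl, both harvested on day 1. The other 6 are from new-onset mice (200 to 300 mg/dl) given PPCA daily, which is nutlin-3 at 50 mg/kg, an inhibitor of MDM2, together with MK-1775 at 25 mg/kg, an inhibitor of the kinase WEE1, or given the vehicle of 30% ethanol, 5% Tween 20 and 65% PEG300. Each arm has 1 library at each harvest labelled day 2, day 3 and day 4, which the labels place the day after 1, 2 or 3 daily treatments. How many mice went into a library is not stated, so p-values measure the spread between libraries.

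The libraries held 80470 cell barcodes and 36934580 to 67603740 unique molecular identifiers (UMIs, counted molecules) each. A T cell had at least 2 UMIs over Cd3d, Cd3e, Cd3g, Trac, Trbc1 and Trbc2, and 70957 cells passed all filters. A CD4-gated cell had Cd4 and no Cd8a or Cd8b1 UMI (2650 to 4771 cells per library), and a CD8-gated cell the reverse (1658 to 4487). Foxp3-positive T cells (217 to 490) and Ccl5-positive T cells (704 to 2478) had at least 1 UMI of that gene whatever their gate. Foxp3 marks regulatory T cells, and the chemokine gene Ccl5 marks memory and effector cells. UMIs were summed per library and gate and given as CPM, the share of a gene in the sum scaled to a common total. Such a sum does not separate the share of cells with a transcript from the amount per cell. Library pairs shared 14 to 41 barcodes. Against their label, 4 libraries (vehicle day 2, vehicle day 3, PPCA day 3 and PPCA day 4) held 186 to 274 CPM of Y-linked transcripts and at most 0.743 CPM of Xist, while the other 4 held at most 0.184 and at least 416 CPM. The pairs of day 2 and day 4 are crossed for this. For many calls that ended without the 4 libraries, the values without them are given too.

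RefSeq gives the 250 bases before the start of 6 of the 9 genes (GRCm38.p6, the C57BL/6J genome, not NOD). The promoters below belong to the receptors that moved furthest apart in the results that follow: Slamf7 and Cd244a, both higher in Ccl5-positive CD8-gated cells, and Slamf6, which was lower there. They were searched on both strands for TGACTCA (AP-1), TGTGGT (RUNX), CTTTGA (TCF) and GGTGTGA (T-box). Capitals mark the AP-1 letters, which read TGAGTCA where they match on the other strand.
Slamf7, chr1:171649000-171649249, minus strand: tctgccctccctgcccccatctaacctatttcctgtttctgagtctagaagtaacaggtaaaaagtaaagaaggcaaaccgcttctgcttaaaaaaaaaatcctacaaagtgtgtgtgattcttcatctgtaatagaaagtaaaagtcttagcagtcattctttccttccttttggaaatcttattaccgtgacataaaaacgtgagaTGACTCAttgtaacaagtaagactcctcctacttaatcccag
Cd244a, chr1:171558943-171559192, plus strand: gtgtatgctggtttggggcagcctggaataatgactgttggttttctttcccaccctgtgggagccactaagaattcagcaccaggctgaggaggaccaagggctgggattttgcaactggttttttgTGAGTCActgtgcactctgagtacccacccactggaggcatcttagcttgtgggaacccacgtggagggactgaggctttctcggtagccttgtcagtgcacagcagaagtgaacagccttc
Slamf6, chr1:171917212-171917461, plus strand: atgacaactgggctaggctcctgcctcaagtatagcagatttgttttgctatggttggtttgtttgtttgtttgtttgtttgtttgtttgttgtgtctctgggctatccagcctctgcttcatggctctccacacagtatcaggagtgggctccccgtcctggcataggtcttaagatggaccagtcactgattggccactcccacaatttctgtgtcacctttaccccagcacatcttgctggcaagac
The AP-1 letters began 42 bases before the Slamf7 start and 122 bases before the Cd244a start. They were also in the Cd84 promoter, so 3 of 6 members held them, against 4.46% of 32851 promoters. The RUNX letters were in the Cd48 and Cd84 promoters (14.0% of all promoters), and the TCF letters (13.8%) and T-box letters (3.33%) in that of Cd48, where the RUNX and T-box letters overlap. None of the 4 was in the Slamf6 window. A match of letters is a description of the sequence, and no binding was measured here.

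The order of median levels over the 4 gates was not the same for all 9 genes. Slamf1 was highest in Foxp3-positive cells, at 54.7 to 93.9 CPM (median 78.8), above CD4-gated cells (24.3 to 49.2, median 33.3) in every library. Its CD8-gated sums ran from 15.3 to 29.2 CPM (median 18.8) and its Ccl5-positive sums from 21.1 to 37.3 (median 25.9), and both ranges overlap that of CD4-gated cells. Slamf7 was highest in Ccl5-positive cells, at 22.4 to 56.8 CPM (median 35.1), then in CD8-gated cells at 12.9 to 39.3 (median 18.6). It was lower in Foxp3-positive cells at 4.32 to 15.9 (median 9.39) and lowest in CD4-gated cells at 1.18 to 3.91 (median 1.74). Only the last step of that order separates without overlap, and it rests on 276 UMIs in all CD4-gated cells. Cd244a was near the limit of detection, with 90 UMIs over all CD4-gated and 155 over all CD8-gated cells. It reached 1.88 to 6.39 CPM in Ccl5-positive cells.

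The remaining receptors were spread over all gates. Slamf6 had medians of 127 CPM in CD4-gated, 137 in CD8-gated, 151 in Foxp3-positive and 118 in Ccl5-positive cells, with library ranges that all overlap (80.9 to 189). Cd84 had medians of 124, 107, 147 and 116 CPM in the same order, Ly9 of 79.3, 80.4, 84.5 and 84.8, and Cd48 of 103, 134, 143 and 138. Their gates overlapped too. The adaptor Sh2d1a was highest in Foxp3-positive cells (111 to 203 CPM, median 147), above CD4-gated (71.8 to 96.2) and CD8-gated cells (60.9 to 102) without overlap. Sh2d2a stood out by day: both day 4 libraries had 108 to 116 CPM in CD4-gated and 106 to 119 in CD8-gated cells, and the other 6 had 54.8 to 77.8 and 57.2 to 94.9. The library of PPCA day 2 had the highest Cd84, Ly9, Cd48 and Sh2d1a in both CD4- and CD8-gated cells.

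**Figure D1:**
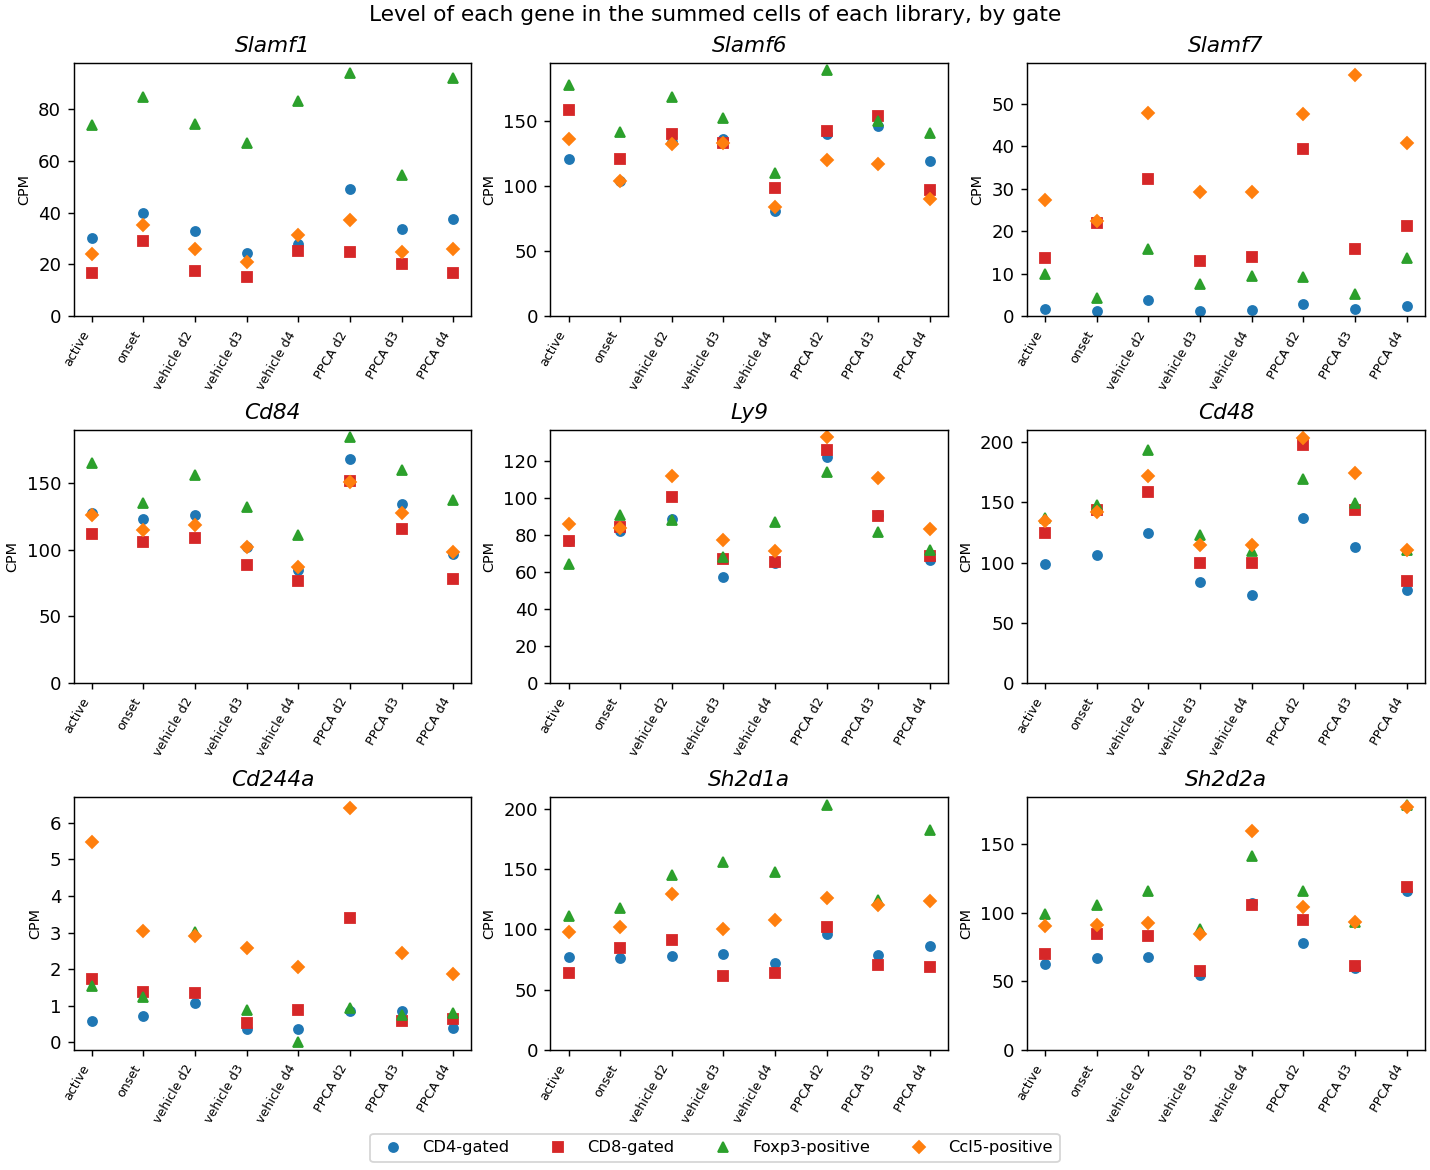
Level of each of the 9 genes in CPM (vertical axis, with a scale per gene) in each of the 8 libraries (horizontal axis), for CD4-gated, CD8-gated, Foxp3-positive and Ccl5-positive cells (symbols). The vertical axes start at 0, except that of Cd244a, which starts just below it. Slamf1 and Sh2d1a are highest in Foxp3-positive cells in all 8 libraries, Slamf7 in Ccl5-positive cells in all 8, and Sh2d2a is raised in both day 4 libraries.

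CD8-gated cells carried far more Slamf7 than CD4-gated cells, more Cd48 and Cd244a, and less Slamf1. Sums of both gates within a library were compared over the 8 libraries, with the library as a block. Of 12667 genes tested with edgeR's quasi-likelihood test, 45.2% were called at a Benjamini-Hochberg adjusted p under 0.05, so that 8 of 9 members called is read against a high background. Of the members 6 were higher in the CD8 gate, as were 22.9% of genes, and 2 were lower, as were 22.2%. Slamf7, whose receptor promotes NK and CD8 T cell killing, was higher in the CD8 gate in 8 of 8 libraries, by 3.42 log2 units (SE 0.1, edgeR adjusted p = 3.2e-13). Slamf1, a receptor of T helper cells, was lower in 8 of 8, at 15.3 to 29.2 against 24.3 to 49.2 CPM, by a log2 difference of -0.69 (SE 0.0823, edgeR adjusted p = 4.87e-06). Cd48, the ligand of CD244, was higher in 8 of 8, by 0.40 (SE 0.0318, edgeR adjusted p = 5.04e-08). Its receptor gene Cd244a was higher in 7 of 8, by 0.99 (SE 0.246, edgeR adjusted p = 0.00377). These 4 calls held under all alternatives tried. Transcripts of other cell types moved with them. The 5 NK genes summed to 56.0 to 128 CPM in CD8-gated and 2.28 to 8.57 in CD4-gated cells, most of it Eomes (43.1 to 93.8) and Klre1 (10.9 to 50.4) in the CD8 gate, and the 4 gamma delta constant genes to 23.6 to 134 and 7.61 to 17.9. Their part in the result was not tested.

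The other differences between the gates were small. Sh2d2a was 0.19 log2 units higher in CD8-gated cells (edgeR adjusted p = 0.000449, higher in 7 of 8 libraries) and Cd84 lower, at -0.16 (edgeR adjusted p = 4.18e-05, lower in 8 of 8). Ly9 differed by 0.11 (edgeR adjusted p = 0.0119), which ended after thinning to 2000 UMIs per cell (0.0863), without the library of vehicle day 2 (0.0541) and without the 4 libraries with Y-linked transcripts (0.332). Slamf6 differed by 0.14 (edgeR adjusted p = 0.0454). That call ended after thinning (0.02, adjusted p = 0.892), under DESeq2 (0.0627) and without any 1 of 7 libraries, all but PPCA day 4, at edgeR adjusted p from 0.051 to 0.153. CD8-gated cells were the deeper ones, with median UMIs per cell of 4277 to 7275 against 3850 to 6167. For Sh2d1a the difference was -0.06 (SE 0.056, edgeR adjusted p = 0.402), with 3 of 8 libraries higher in the CD8 gate.

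Genes that act with the family were read from 3 lists. Of 14 genes of the pathway, 10 were tested, 1 was higher and 4 were lower in CD8-gated cells, which is near the 45.2% of all genes called. The largest of these differences were those of the phosphatase genes Ptpn6 (SHP-1, log2 difference 0.26) and Ptpn11 (SHP-2, -0.25), of the adhesion receptor gene Cd2 (-0.14) and of the kinase gene Csk (-0.13). Fyn, the kinase that SAP recruits, differed by -0.01 and was not called. Of 9 helper genes known to depend on SAP in follicular T cells or to mark those cells, 8 were tested, 4 were lower and 1 was higher in the CD8 gate. They include Cd40lg (-4.01), Il21 (-2.82), Maf (-2.70) and Cxcr5 (0.62). The call of Cxcr5 ended without the active library (edgeR adjusted p = 0.0806), without vehicle day 2 (0.0826), without PPCA day 3 (0.0643) and after thinning (0.28, 0.458). Without the 4 libraries with Y-linked transcripts the calls of Cxcr5 (0.74, edgeR adjusted p = 0.0503) and Ptpn11 (-0.12, 0.128) ended. Of 6 genes of innate-like or NK-like T cells, 4 were tested, and Klrk1 (4.96), Tbx21 (2.44) and Il2rb (1.52) were higher.

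Within CD4-gated cells, those with a Foxp3 UMI carried more Slamf1 and more Sh2d1a in every library, without overlap. Slamf1 ran from 55.2 to 98.4 CPM (median 82.1) in Foxp3-positive cells and from 21.4 to 46.4 (median 31.6) in Foxp3-negative ones. The log2 difference was 1.07 (SE 0.0958, edgeR adjusted p = 4.58e-14). Sh2d1a ran from 111 to 229 CPM (median 155) against 70.1 to 85.5 (median 74.3), a difference of 0.85 (SE 0.0714, edgeR adjusted p = 5.55e-15). Of 12364 genes, 30.7% were called, and of the members 5 of 9, all higher, as were 13.9% of all genes. Sh2d2a was higher by 0.35 (edgeR adjusted p = 3.25e-05, 8 of 8 libraries). The 100 to 209 Foxp3-positive CD4-gated cells per library held few UMIs of some members, and TMM scaling set the fitted differences 0.26 below the plain CPM ratios.

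Slamf7 was called higher in Foxp3-positive CD4-gated cells as well, by 2.14 (SE 0.317, edgeR adjusted p = 1.57e-07, 8 of 8 libraries), on 53 UMIs against 223. Its ranges of 2.55 to 15.5 and 0.812 to 3.32 CPM overlap, and the call ended after thinning (1.55, adjusted p = 0.134). Cd48 was 0.28 higher (edgeR adjusted p = 0.000434, 8 of 8), which ended after thinning (0.165) and without the 4 libraries with Y-linked transcripts (0.213). Slamf6 (0.09), Cd84 (0.10) and Cd244a (-0.20, on 4 UMIs against 86) were not called. Ly9 was at -0.18 (edgeR adjusted p = 0.0566), called without the library of vehicle day 3 (-0.23, 0.0231). In plain CPM, however, Ly9 was higher in Foxp3-positive cells in 5 of 8 libraries (median 82.5 against 79.3). Cd84 was higher in plain CPM in 8 of 8, Slamf6 in 7 of 8 and Cd244a in 3 of 8. In these cells the NK genes Ncr1, Klrb1c, Klre1 and Tyrobp and the innate-like gene Zbtb16 were at 0 in all libraries, and the remaining NK gene, Eomes, was at 0 to 32.3 CPM (median 6.02) against 1.96 to 6.33 (median 4.37) in Foxp3-negative cells. The summed B cell list was at 215 to 504 CPM against 106 to 213 in Foxp3-negative cells, nearly all of it Ighm (211 to 484), and the myeloid list at 135 to 209 against 114 to 138, nearly all of it Cst3 (132 to 206 against 108 to 131). The part of these transcripts in the result was not tested.

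The helper list moved most between these cells, with 6 of 8 tested genes higher and 2 lower in Foxp3-positive cells. Cxcr5, the follicular homing receptor gene, was higher by 3.21, Tox2 by 2.81, Maf by 2.57 and Pdcd1 by 2.43 log2 units, with an edgeR adjusted p of 2.06e-13 or less for each. Of 10 pathway genes tested, 4 were higher and 4 lower. Ptpn6 (-0.37) and Prkcq (-0.32), a kinase gene of T cell receptor signalling, were lower, and Cd2 was higher (0.46). The call of Prkcq ended after thinning (-0.18, adjusted p = 0.342). Of the innate-like genes, Il2rb (2.97) was higher and Klrk1 (-1.74) lower, but the call of Klrk1 ended without any 1 of 7 libraries, all but onset (edgeR adjusted p from 0.0574 to 0.0912). That call also ended without the 4 libraries with Y-linked transcripts (-1.19, edgeR adjusted p = 0.392).

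Within the CD8 gate, cells with and without Ccl5 were compared. Slamf7, Cd244a and both adaptors were higher in the cells with Ccl5, and Slamf6 was lower. Of 11452 genes tested, 41.1% were called, and of the members 7 of 9, with 6 higher (20.3% of all genes) and 1 lower (20.8%). Slamf7 was at 39.2 to 74.5 CPM (median 50.4) in Ccl5-positive and at 4.31 to 11.5 (median 5.38) in Ccl5-negative cells. The groups did not overlap, and the log2 difference was 2.97 (SE 0.108, edgeR adjusted p = 3.01e-15). Cd244a was higher in 8 of 8 libraries, by 2.50 (SE 0.358, edgeR adjusted p = 7.16e-06), on 114 UMIs against 41.

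The adaptors behaved alike in this split. Sh2d1a was at 101 to 148 CPM (median 119) in Ccl5-positive and at 43.3 to 69.5 (median 55.3) in Ccl5-negative CD8-gated cells. The groups did not overlap, and the log2 difference was 1.03 (SE 0.0494, edgeR adjusted p = 3.4e-13). Sh2d2a was at 92.9 to 191 CPM (median 120) against 47.8 to 82.9 (median 62.1), again without overlap, a difference of 0.90 (SE 0.0433, edgeR adjusted p = 3.8e-13). Slamf6, a receptor known on less differentiated CD8 T cells, went the other way in 8 of 8 libraries. It was at 75.9 to 136 CPM (median 111) in Ccl5-positive and at 105 to 165 (median 144) in Ccl5-negative cells, a difference of -0.51 (SE 0.0523, edgeR adjusted p = 6.59e-08). Those ranges overlap between libraries, while each library's own pair was lower on the Ccl5-positive side. Genes known from naive T cells were lower beside it without overlap. Ccr7 was at 103 to 179 CPM in Ccl5-positive and 210 to 378 in Ccl5-negative cells, Lef1 at 258 to 419 and 634 to 805, and Tcf7 at 230 to 315 and 336 to 462. Their part in the result was not tested.

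Cd48 was 0.42 higher (SE 0.045, edgeR adjusted p = 1.29e-07, 8 of 8 libraries). Ly9 was 0.22 higher (edgeR adjusted p = 0.000197, 8 of 8), which ended without the 4 libraries with Y-linked transcripts (0.12, 0.109). Slamf1 (-0.04, SE 0.0586) and Cd84 (0.01, SE 0.0488) were not called. The calls of Slamf7, Sh2d1a, Sh2d2a, Slamf6 and Cd48 held under the 17 alternatives tried, and that of Cd244a under the 16 that gave it a value. A single stray UMI can make a cell Ccl5-positive, and of these cells 19.0 to 36.7% per library had just 1 Ccl5 UMI. With at least 3 Ccl5 UMIs against none, an alternative chosen after seeing the data, the differences were 3.41 for Slamf7, 1.34 for Sh2d1a, 1.12 for Sh2d2a and -0.785 for Slamf6, all called. Plain CPM ratios lie 0.11 log2 units above the fitted differences here.

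**Figure D2:**
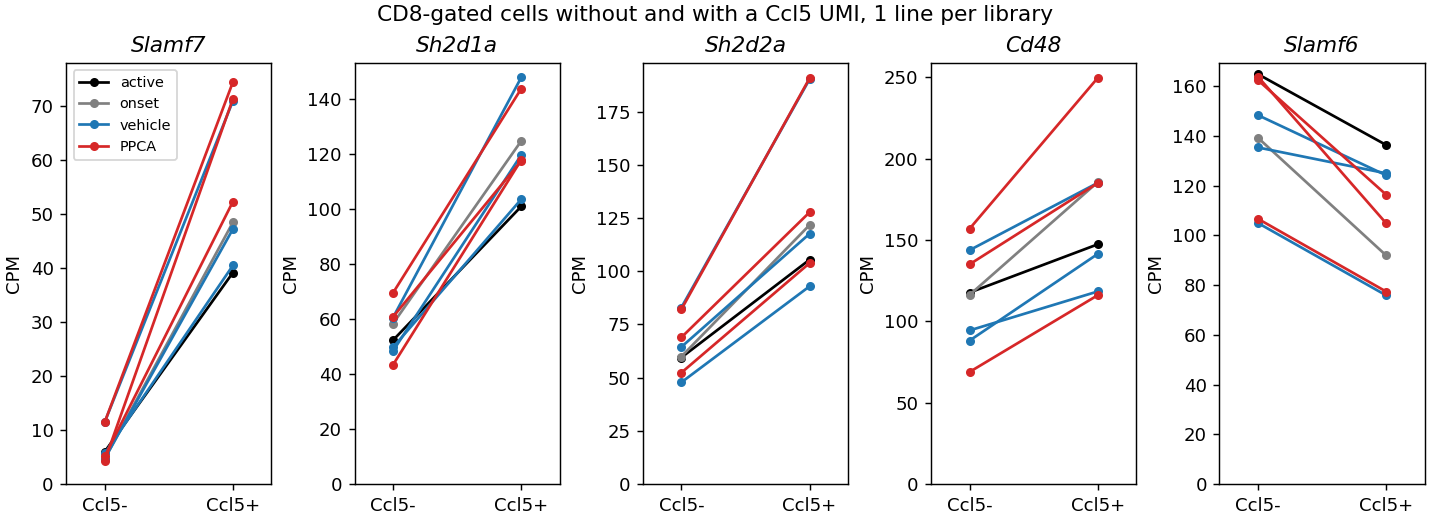
CPM (vertical axes, from 0) of Slamf7, Sh2d1a, Sh2d2a, Cd48 and Slamf6 in CD8-gated cells without and with a Ccl5 UMI (horizontal axis), with 1 line per library (black active, grey onset, blue vehicle, red PPCA). Every line rises for the first 4 genes and every line falls for Slamf6.

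The genes around the family moved as well. Of 10 pathway genes tested, 5 were higher and 4 lower in Ccl5-positive CD8-gated cells. Fyn was higher by 0.70 log2 units, Inpp5d (SHIP1) by 0.38 and Ptpn11 by 0.29, and Ptpn6 was lower (-0.27). Of 8 helper genes tested, 6 were higher, including Tox2 (4.40), Pdcd1 (3.44), Cxcr5 (1.97) and Maf (1.12), and Cd40lg was lower. Klrk1 (6.15), Tbx21 (3.15) and Il2rb (1.31), the innate-like genes tested, were all higher. Transcripts of other cell types differed beside these results. The 5 NK genes summed to 146 to 262 CPM in Ccl5-positive and 13.7 to 56.0 in Ccl5-negative cells, and the 4 gamma delta constant genes to 81.8 to 283 and 6.71 to 15.8. The NK sum was almost entirely Eomes (101 to 166) and Klre1 (42.3 to 126), with Klrb1c at 0 to 0.717, Tyrobp at 0.209 to 2.50 and Ncr1 at 0 to 4.51. The 6 myeloid genes summed to 130 to 204 CPM against 108 to 134. Their part in the result was not tested.

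In the CD4 gate the result of the same split depended on how many Ccl5 UMIs a cell needed. Of the CD4-gated cells 4.60 to 18.6% had a Ccl5 UMI, against 16.6 to 45.9% of CD8-gated cells, and 64.1 to 83.6% of the CD4-gated positive cells had just 1. Only 2 to 6 barcodes per library had at least 3 UMIs over Cd79a, Cd79b and Ms4a1 and no T cell UMI, too few to give a background share for Ccl5. Lef1 was at 457 to 888 CPM in Ccl5-positive and 627 to 985 in Ccl5-negative CD4-gated cells, and Ccr7 and Tcf7 overlapped as well. With 1 UMI as the threshold, of 11934 genes 5.73% were called, and 2 of the 8 members tested, both higher, as were 3.13% of all genes. Slamf7 was at 2.12 to 13.6 CPM in Ccl5-positive and 0.833 to 2.92 in Ccl5-negative CD4-gated cells, higher in 8 of 8 libraries by 1.93 (SE 0.269, edgeR adjusted p = 7.34e-07), on 93 UMIs against 183. Sh2d1a was higher by 0.23 (SE 0.0586, edgeR adjusted p = 0.007, 7 of 8 libraries). That call ended without the library of PPCA day 4 (0.15, 0.0956), without both day 4 libraries (0.323) and without the 4 libraries with Y-linked transcripts (0.699). Slamf6 differed by 0.00 (SE 0.0408) and Sh2d2a by 0.06 (SE 0.0594). Slamf1 was at 0.19 and not called, but was called with the gate rule only (0.21, edgeR adjusted p = 0.0477). Cd244a was not tested, with 15 UMIs against 75. Of the pathway list 1 of 10 genes was higher and 1 lower, of the helper list 4 of 8 were higher, and of the innate-like list 3 of 4, led by Klrk1 (2.63). The NK genes summed to 4.54 to 38.9 CPM in Ccl5-positive and 1.57 to 6.90 in Ccl5-negative CD4-gated cells and the gamma delta genes to 8.89 to 27.2 and 7.47 to 18.0. Eomes alone was at 2.52 to 38.2 and 0.885 to 6.40, and their part was not tested.

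With at least 3 Ccl5 UMIs against none, 21 to 102 Ccl5-positive CD4-gated cells per library were left, and edgeR called 2642 of 11776 genes, 1071 of them higher. Of the 8 members tested 5 were then called, all higher in Ccl5-positive CD4-gated cells. They were Slamf7 (4.31, SE 0.372), Sh2d1a (1.03, SE 0.106), Slamf1 (0.86, SE 0.165), Cd48 (0.78, SE 0.103) and Sh2d2a (0.44, SE 0.121), each with an edgeR adjusted p of 0.00236 or less. Slamf6 was not called (-0.13, edgeR adjusted p = 0.446).

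Whether the Ccl5 split differed between the gates was tested by an interaction added after the values were seen, and only the calls of Sh2d2a and Slamf6 held at both thresholds. With 1 Ccl5 UMI, of 12056 genes 16.6% were called, and 6 of the 8 members that were tested in both gates. The split was wider in the CD8 gate for Sh2d2a (by 0.82, SE 0.0804, edgeR adjusted p = 9.23e-10), for Sh2d1a (by 0.79, SE 0.0859, edgeR adjusted p = 1.03e-08) and for Slamf7 (by 1.07, SE 0.292, edgeR adjusted p = 0.00849). It was more negative for Slamf6, by -0.52 (SE 0.067, edgeR adjusted p = 2.74e-07). Thinning to 2000 UMIs ended the call of Slamf7 (1.11, adjusted p = 0.09). With at least 3 Ccl5 UMIs edgeR called 542 of 12295 genes, and the calls of Sh2d2a (0.64, edgeR adjusted p = 0.00189) and Slamf6 (-0.66, edgeR adjusted p = 0.00938) held. Those of Sh2d1a (0.28, edgeR adjusted p = 0.16) and Ly9 (0.38, edgeR adjusted p = 0.103) ended, and Slamf7 changed sign (-0.87, edgeR adjusted p = 0.0925), as did Cd48 (-0.23, edgeR adjusted p = 0.25). Slamf1, at -0.25 and not called with 1 UMI (edgeR adjusted p = 0.0669), was then called at -0.96 (SE 0.168, edgeR adjusted p = 0.000221).

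**Figure D3:**
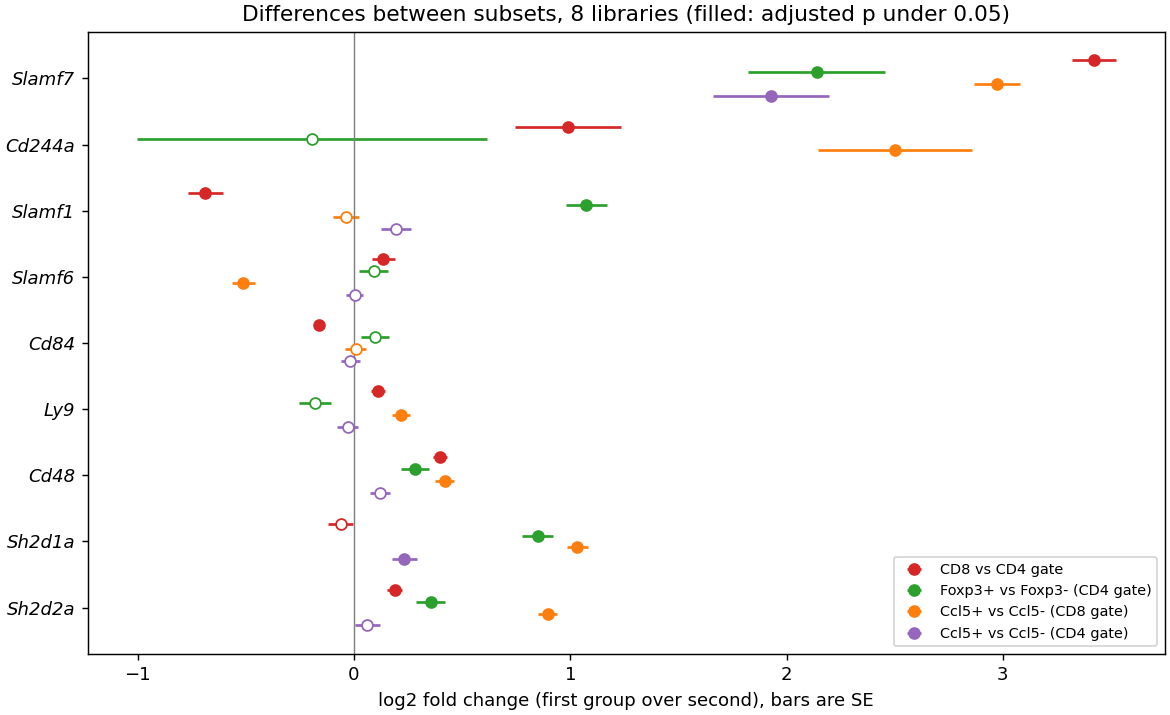
Log2 fold change between subsets (horizontal axis, bars are SE) for each gene (vertical axis), over 8 libraries, for CD8 against CD4 gate, Foxp3-positive against Foxp3-negative CD4-gated cells, and Ccl5-positive against Ccl5-negative cells of each gate (colours). Ccl5-positive means 1 UMI or more, and filled points have an edgeR adjusted p under 0.05. Slamf7 lies to the right in all 4 comparisons, and Slamf6 lies left of 0 in the Ccl5 split of the CD8 gate, at -0.51.

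Receptors were also read against each other inside the CD8 gate. Cells with a Slamf7 UMI (156 to 348 per library) carried more Sh2d1a, at 106 to 166 CPM (median 144) against 56.1 to 91.7 (median 64.4) in Slamf7-negative cells, without overlap. The log2 difference was 0.87 (SE 0.0601, edgeR adjusted p = 1.88e-13). Of 11302 genes 25.5% were called, and 7 of the 8 other members. Sh2d2a was higher by 0.80 (edgeR adjusted p = 2.18e-12), Cd48 by 0.41 (3.51e-07 by edgeR, adjusted) and Cd244a by 1.67 (0.000526), each in 8 of 8 libraries. Slamf6 was lower in 6 of 8, at -0.30 (edgeR adjusted p = 0.000453). Slamf1 (0.34, edgeR adjusted p = 0.0185) and Ly9 (0.18, 0.02) were called higher, but both calls ended after several changes. That of Slamf1 ended without onset (0.0648), vehicle day 3 (0.0587) or PPCA day 4 (0.0987) and after thinning (0.724). That of Ly9 ended without vehicle day 2 (0.0507) or PPCA day 3 (0.0987), and after thinning Ly9 was at -0.13. Without the 4 libraries with Y-linked transcripts they were at 0.424 and 0.803. The NK genes summed to 171 to 290 CPM in Slamf7-positive and 44.6 to 99.8 in Slamf7-negative cells, and the 5 genes of a cytotoxic or memory list (Ccl5, Nkg7, Gzmk, Gzmb and Cxcr3) to 5560 to 13400 and 1330 to 4230, neither with overlap. The gamma delta genes summed to 83.7 to 310 and 19.4 to 115 CPM. The part of these transcripts in the result was not tested. Median UMIs per cell were 4136 to 8076 in Slamf7-positive and 4285 to 7247 in Slamf7-negative cells.

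Splitting the CD8 gate by Slamf6 gave fewer calls than splitting it by Slamf7. Of 11342 genes 11.8% were called, and 5 of the 8 other members. Slamf6-positive cells had less Cd244a in 8 of 8 libraries (-1.79, SE 0.274, edgeR adjusted p = 2.62e-05), on 32 UMIs against 123. They had less Slamf7 in 7 of 8, at 10.8 to 33.5 CPM (median 13.4) against 12.0 to 43.8 (median 21.3), a difference of -0.39 (SE 0.0937, edgeR adjusted p = 0.00424). Sh2d2a was lower in 8 of 8 (-0.20, edgeR adjusted p = 0.000204), and Sh2d1a was not called (0.07). Cd48 (-0.13) and Cd84 (0.10) were called, and both calls ended under DESeq2 (adjusted p = 0.0651 and 0.241). That of Cd48 also ended after thinning (-0.15, edgeR adjusted p = 0.133). That of Cd84 also ended without the active library (0.0638) or PPCA day 2 (0.0583). Of the lists, Klrk1 (-1.37), Pdcd1 (-1.06), Tox2 (-1.02) and Tbx21 (-0.55) were lower in Slamf6-positive cells and Il21 (1.82) and Cxcr5 (0.81) higher. The call of Il21 ended under DESeq2 (1.60, adjusted p = 0.117), and those of Cxcr5 and Tox2 after thinning (adjusted p = 0.53 and 0.0536). In the Slamf7 split Il21 and Cxcr5 were called higher in Slamf7-positive cells too. Without 1 library they ran there from 1.87 to 2.41 and from 1.69 to 1.82. Both of those calls ended after thinning (edgeR adjusted p = 0.275 and 0.381). The gamma delta genes summed to 9.67 to 43.2 CPM in Slamf6-positive and 36.2 to 205 in Slamf6-negative cells, the NK genes to 48.1 to 101 and 56.0 to 159 and the cytotoxic or memory list to 1210 to 3800 and 1960 to 7130, and their part was not tested. Slamf6-positive cells were the deeper, with median UMIs per cell of 4629 to 7646 against 4093 to 6764.

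PPCA was compared with vehicle within each gate, 3 libraries an arm, with the harvest day as a block. No member passed the test in any gate with edgeR or DESeq2, and at an unadjusted p under 0.05 there were 3 members in CD4-gated, 1 in CD8-gated, 0 in Foxp3-positive and 2 in Ccl5-positive cells. Over all genes that unadjusted count was 802 of 11946, 963 of 12001, 538 of 8778 and 900 of 11209 in the same order. In CD4-gated cells 0.0% of 11946 genes were called by edgeR and 35 genes by DESeq2. All 9 members had a positive log2 fold change, with a median of 0.18 against 0.00 over all genes tested. Slamf1 was at 32.9, 24.3 and 27.8 CPM in the vehicle libraries of days 2, 3 and 4, and at 49.2, 33.8 and 37.7 in those of PPCA. All 3 PPCA libraries lay above all 3 vehicle libraries, the only member in this gate for which they did, where 3.43% of genes did so. The log2 fold change was 0.42 (SE 0.0951, edgeR adjusted p = 0.606), and it stayed between 0.36 and 0.47 over the alternatives. The 5 genes of a regulatory list (Foxp3, Il2ra, Ikzf2, Ctla4 and Tnfrsf18) summed to 207 to 259 CPM under vehicle and 245 to 429 under PPCA in this gate. In its Foxp3-negative cells Slamf1 was at 30.4, 21.4 and 26.1 CPM under vehicle and 46.4, 32.8 and 35.4 under PPCA, again without overlap, and the regulatory list there summed to 153 to 165 and 155 to 348. Ly9 was at 88.6, 57.2 and 65.0 CPM under vehicle and at 122, 90.9 and 66.3 under PPCA, with arms that overlap (0.31, SE 0.122, edgeR adjusted p = 0.733).

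In CD8-gated cells 0.0167% of 12001 genes were called, and no member. Their median log2 fold change was 0.12 against 0.00 over all genes. Slamf7 was at 32.3, 12.9 and 13.8 CPM under vehicle and at 39.3, 15.9 and 21.2 under PPCA, higher on each day with arms that overlap (0.31, SE 0.122, edgeR adjusted p = 0.592). Slamf1 was at 17.6, 15.3 and 25.0 CPM under vehicle and at 24.7, 20.1 and 16.8 under PPCA (0.00, SE 0.186, edgeR adjusted p = 0.996), so day 4 ran against the other days. Slamf6 was at 140, 133 and 98.7 against 142, 154 and 96.7 CPM (-0.02, SE 0.0846, edgeR adjusted p = 0.968). No member's arms were apart in this gate, where 3.99% of genes had arms that did not overlap.

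In Foxp3-positive cells 0.0797% of 8778 genes were called and none of the 8 members tested. Sh2d1a was at 145, 156 and 148 CPM under vehicle and at 203, 124 and 183 under PPCA (0.12, SE 0.168, edgeR adjusted p = 0.94), and only day 3 was lower. In Ccl5-positive cells 0.0268% of 11209 genes were called and no member. Slamf7 was at 47.8, 29.3 and 29.1 CPM under vehicle and at 47.6, 56.8 and 40.8 under PPCA (0.39, SE 0.153, edgeR adjusted p = 0.583). The cytotoxic or memory list, in the same cells, summed to 4520 to 5510 CPM under vehicle and 6840 to 8640 under PPCA, without overlap. Most of that sum is Ccl5 itself, the gene of the gate, at 3530 to 7550 CPM over the 8 libraries. Nkg7, for example, was at 666 to 996. The gamma delta genes summed to 62.8 to 80.6 and 78.5 to 177 CPM, and the part of these transcripts was not tested. Slamf6 was at 132, 133 and 83.6 against 119.8, 117 and 90.1 CPM (-0.15, SE 0.11, edgeR adjusted p = 0.771). Of the pathway, helper and innate-like lists, edgeR called 0 genes in each of the 4 gates. At an unadjusted p under 0.05 the largest count was 4 of 7 helper genes in CD8-gated cells, beside the 963 of 12001 genes given above. The difference of the PPCA effect between CD8- and CD4-gated cells was called for 0.008% of 12499 genes and for no member by edgeR or DESeq2, with 1 member and 457 genes at an unadjusted p under 0.05. It was largest for Slamf1 among the well-counted members, at -0.44 (SE 0.163, edgeR adjusted p = 1.0). Without the filter on low counts the difference of Slamf1 was called (edgeR adjusted p = 0.0441). Only 2 residual degrees of freedom were left in the fits of PPCA against vehicle, so a p that misses the threshold does not show that the arms are alike.

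**Figure D4:**
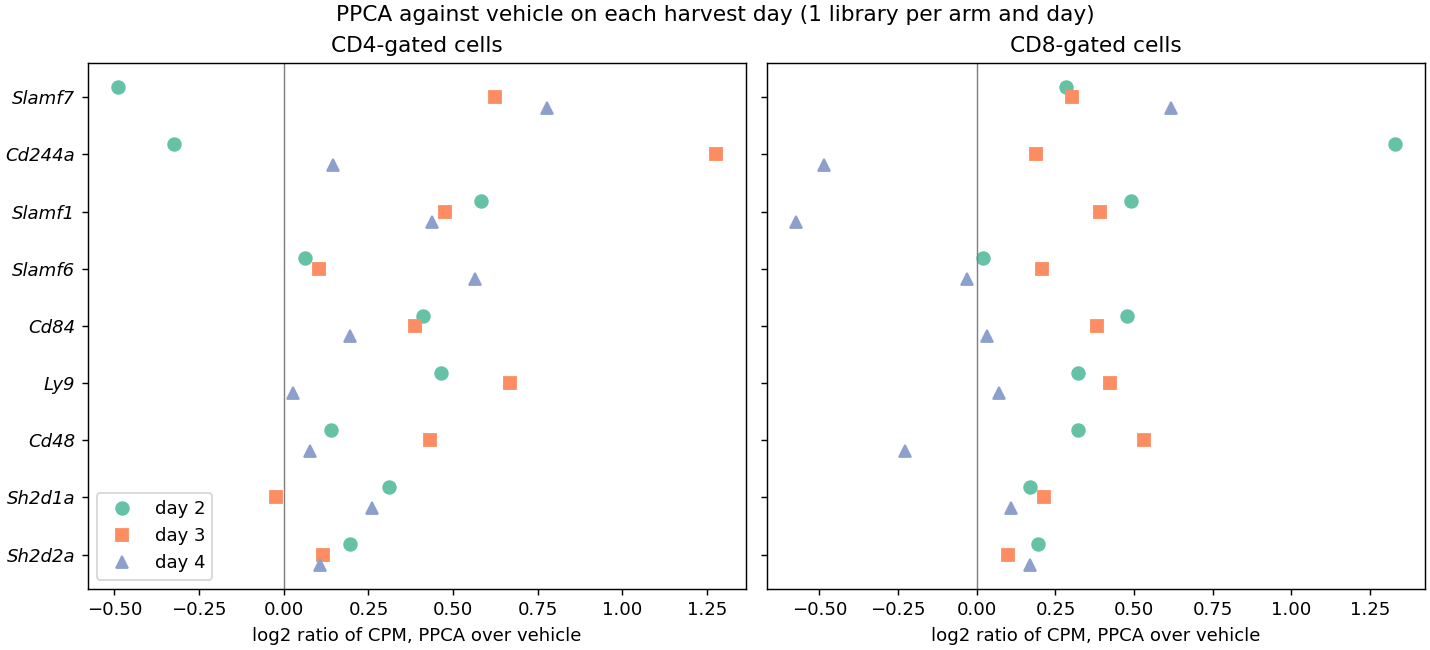
Log2 ratio of CPM, PPCA over vehicle (horizontal axis), for each gene (vertical axis) at the harvests of day 2, 3 and 4 (symbols), in CD4-gated cells (left) and CD8-gated cells (right), 1 library per arm and day. In CD4-gated cells Slamf1 lies to the right of 0 on all 3 days, and in CD8-gated cells its day 4 point lies to the left.

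Active and onset diabetes had 1 library each, so their values are set side by side with exact 95% Poisson intervals, which cover counting error only, and no test was made. In CD8-gated cells Slamf1 was at 16.5 CPM (14.8 to 18.4) in active and 29.2 (26.1 to 32.4) in onset disease. Slamf7 was at 13.8 (12.2 to 15.5) and 21.9 (19.3 to 24.8), and Sh2d1a at 63.7 (60.3 to 67.2) and 84.5 (79.3 to 89.9). Slamf6 was the reverse, at 158 (153 to 164) in active and 120.7 (114 to 127) in onset disease. Cd48 was at 125 (119.9 to 129.6) and 144 (137 to 151), and Sh2d2a at 70.2 (66.7 to 73.9) and 84.2 (79.0 to 89.7). The intervals of these 6 genes do not overlap, while those of Cd84, Ly9 and Cd244a do. The 2 libraries differed in the make-up of the gate, with 652 Ccl5-positive and 2074 Ccl5-negative CD8-gated cells in active and 866 and 1169 in onset disease.

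The 6 genes were also read within the Ccl5-positive and Ccl5-negative CD8-gated cells, which differed in turn. With Ccl5 the cytotoxic or memory list, which includes Ccl5 itself, summed to 6200 CPM in active and 11900 in onset disease. Slamf1 was lower in active disease on both sides, at 16.8 (13.4 to 20.9) against 31.2 CPM (26.3 to 36.8) with Ccl5 and at 16.4 (14.5 to 18.5) against 27.8 (24.1 to 32.0) without. Slamf6 was higher in active disease on both sides, at 136 (126 to 147) against 92.0 (83.4 to 101) with Ccl5 and at 165 (159 to 171) against 139 (131 to 148) without. Sh2d1a was at 101 (92.2 to 110.2) against 125 (115 to 135) with Ccl5, and its intervals overlapped without it. Cd48 was at 147 (137 to 159) against 186 (173 to 199) with Ccl5, and its intervals too overlapped without it. For Slamf7 and Sh2d2a the intervals overlapped on both sides. In CD4-gated cells Slamf1 was at 30.4 (27.9 to 33.0) in active and 39.7 (37.3 to 42.2) in onset disease and Slamf6 at 120.9 (116 to 126) and 104 (100.3 to 108), in the same directions.

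The authors' deposited table of markers of 7 clusters lists 7 of the 9 members, not Ly9 or Cd244a. In the authors' deposited table Slamf7 (log2 fold change 0.86, detected in a fraction of 0.261 of the cluster's cells), Sh2d2a (0.78), Sh2d1a (0.73) and Cd48 (0.64) mark the cluster the authors named CD8 TRM TEM. The authors' deposited table gives Slamf6 its largest value in the cluster named CD4 Th17 (1.07, fraction 0.607), with Cd84 (0.45) and Slamf1 (0.31) in the same cluster. For the cluster named CD4 Treg the authors' deposited table lists Slamf1 (0.61), Sh2d1a (0.59), Cd84 (0.38), Slamf6 (0.31) and Sh2d2a (0.30). These come from the same cells as the sums above and are no independent support.

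Genes with the most similar pattern were ranked by the Pearson correlation of log2(CPM + 1) over 16 sums, the CD4- and CD8-gated cells of the 8 libraries, among 7278 genes averaging at least 10 CPM. The sums share libraries and depth, so these values are descriptions. For Slamf7 the leading genes were Hopx (0.985), Myo1f (0.985) and Klrk1 (0.983), for Slamf6 they were Scd2 (0.892), Pou2f2 (0.89) and Abhd18 (0.885), and for Sh2d1a they were Arfgef1 (0.907), Slc4a7 (0.901) and Rit1 (0.89).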

How the data were processed

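Single-cell RNA was measured in 8 libraries, each a table of deposited UMI counts per gene and barcode. Counts were made with Cell Ranger, version 6.0.0 per the file headers and 6.1.2 per the submitters' processing notes, which also name Seurat. For the genome build, the annotation and the strand setting, nothing is stated in those sources. The authors' deposited marker table gives a log2 fold change, a p-value and the fraction of cells with a transcript, and was only quoted.

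Kept cells had at least 500 genes, at most 10% mitochondrial UMIs, at least 2 T cell UMIs and at most 1 UMI over 6 B cell and myeloid genes. Scrublet in scanpy 1.11.5 scored doublets, and the top-scoring 0.8% per 1000 barcodes were removed (6289 cells). Gated UMIs were summed per library (Foxp3-positive sums 1237560 to 2241484 UMIs, other gates 3696635 or more) and tested with edgeR 4.0.16 (TMM, filterByExpr, quasi-likelihood, Benjamini-Hochberg, 0.05). The statistics were tested on simulated data. Subsets were compared with the library as a block. PPCA and vehicle were compared with day as a block, since same-day libraries deviated together (correlations over genes 0.127 to 0.691). Intervals and the 8 libraries' depths cover counting error only. Alternatives were DESeq2 1.42.0, its size factors, no filter, no block, the gate rule without other cell filters, thinning to 2000 UMIs, a sex term, leaving out libraries and, chosen after seeing the data, at least 3 Ccl5 UMIs against none. Members and lists were chosen with earlier results of these data known. Named were the 9 members and up to 4 called genes per list with the largest fold change. A few genes that this rule or the marker lists would name are not reported here.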

Additional observations from a re-analysis of the deposited data

Results flagged for a closer look

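The difference between cells with and without Ccl5 was called different between the CD8 and CD4 gates for 6 of the 8 genes tested in both. The test was an interaction (edgeR) that was added after the values were seen, with each gate of each library as a block. The values below are the log2 difference in the CD8 gate minus that in the CD4 gate. Cd244a, the receptor of CD48, had 2.06 (SE 0.595, edgeR adjusted p = 0.0129), a call that ended after thinning (2.16, 0.289), without the active library (1.63, 0.0831) and without both day 4 libraries (1.88, 0.0578). It had too few UMIs for the test in the CD4 gate (15 against 75) and entered this one through its CD8-gated cells, so it is given as a value and left out of the count. Slamf7 had 1.07 (SE 0.292, edgeR adjusted p = 0.00849), which ended after thinning (1.11, 0.09). The adaptor genes Sh2d2a and Sh2d1a had 0.82 (edgeR adjusted p = 9.23e-10) and 0.79 (edgeR adjusted p = 1.03e-08). Slamf6 had -0.52 (edgeR adjusted p = 2.74e-07), Cd48 0.29 (edgeR adjusted p = 0.00134) and Ly9 0.24 (edgeR adjusted p = 0.00735). The call of Ly9 ended after thinning (0.26, 0.259) and without the 4 libraries with Y-linked transcripts (0.20, 0.0851). Of all genes, 16.6% were called. Slamf1 had -0.25 (edgeR adjusted p = 0.0669), called without the onset library (-0.30, 0.0437) and with the gate rule only (-0.28, 0.0292), and Cd84 0.02 was not called. These values rest on cells with 1 or more Ccl5 UMIs. Of the Ccl5-positive CD4-gated cells 64.1 to 83.6% per library had just 1, against 19.0 to 36.7% in the CD8 gate. With at least 3 Ccl5 UMIs against none the calls of Sh2d2a (0.64, edgeR adjusted p = 0.00189) and Slamf6 (-0.66, edgeR adjusted p = 0.00938) held, those of Cd244a (0.52, 0.809), Sh2d1a (0.28, 0.16) and Ly9 (0.38, 0.103) ended, and Slamf7 (-0.87, 0.0925) and Cd48 (-0.23, 0.25) changed sign. Slamf1 was then called (-0.96, 0.000221). No group of this series has 4 or more libraries, so single libraries were not screened for standing apart.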

How the results depend on the processing

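Over the alternatives tried, 1223 of 1366 log2 values of members kept their direction and their side of the threshold, 65 lost a call, 10 gained one and 68 changed sign, and the named genes of the lists kept both in 959 of 1031. Each sign change was of a difference that was not called, except those of Ly9 in the Slamf7 split and of Slamf7 and Cd48 in the difference between the Ccl5 splits. The cause of these changes was not tested. Depth limits Cd244a everywhere and Slamf7 in CD4-gated cells. The counts of genes called depend on the setting more than the members do. The replicate block changed calls: without it (no library or day block) edgeR called 2009 genes for CD8 against CD4 gate, 2005 for the Foxp3 split, 1978 and 61 for the Ccl5 splits of the CD8 and CD4 gates, 1211 and 59 for the Slamf7 and Slamf6 splits, 489 for the difference between the Ccl5 splits and 0 for PPCA in each gate and for its difference between gates. The members that lost a call without the block are Sh2d2a, Cd84, Slamf6 and Ly9 between the gates (adjusted p = 0.671, 0.384, 0.534 and 0.642), Sh2d2a in the Foxp3 split (0.202), Ly9 in the Ccl5 split of the CD8 gate (0.153) and Sh2d1a in that of the CD4 gate (0.661), Slamf1, Slamf6 and Ly9 in the Slamf7 split, and Slamf7, Sh2d2a, Cd48 and Cd84 in the Slamf6 split. In the difference between the Ccl5 splits they are Slamf7, Sh2d2a, Slamf6, Cd48 and Ly9.

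For PPCA against vehicle, genes called in CD4-gated cells numbered 35 with DESeq2, 113 without the filter on low counts, 5 with a sex term and 0 to 124 without 1 day. In CD8-gated cells they numbered 41, 143, 363 and 0 to 176, and 0 with the gate rule only. In Foxp3-positive cells they numbered 91 without the filter, 85 with a sex term and 1 to 100 without 1 day. In Ccl5-positive cells they numbered 39, 91, 107 and 2 to 363, and 0 with the gate rule only. The fits with a sex term or without 1 day had 1 residual degree of freedom. Its difference between gates gave 57 without the filter and 0 without any 1 day. Thinning left 3552 calls between the gates, 1627 in the Foxp3 split, 1511 and 414 in the Slamf7 and Slamf6 splits and 987 in the difference between the Ccl5 splits. DESeq2 gave 723 in the Slamf6 split. The next alternatives were chosen after seeing the data. Without the 4 libraries with Y-linked transcripts 2231 genes were called in the Foxp3 split, 239 in the Ccl5 split of the CD4 gate and 1791 in the Slamf7 split, and without both day 4 libraries 401 in the Ccl5 split of the CD4 gate. With at least 3 Ccl5 UMIs against none 2642 were called in that split, where Cd84 was 0.024 and Slamf6 -0.13, and 542 in the difference between the Ccl5 splits, where Slamf7 was -0.87, Cd48 -0.23 and Cd84 -0.0070.

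Sign changes without 1 day are given as ranges of log2 values. Under PPCA they were, in CD4-gated cells, -0.18 to 0.26 for Cd244a, -0.11 to 0.61 for Slamf7 and -0.019 to 0.27 for Slamf6. In CD8-gated cells they were -0.27 to 0.77 for Cd244a and -0.19 to 0.31 for Slamf1, which was -0.023 without the block. In Foxp3-positive cells they were -0.72 to 0.0083 for Slamf7, -0.073 to 0.38 for Sh2d1a, -0.058 to 0.26 for Ly9, -0.13 to 0.23 for Slamf1, -0.12 to 0.093 for Cd48 (0.046 with the gate rule only) and -0.015 to 0.16 for Sh2d2a. In Ccl5-positive cells they were -0.19 to 0.57 for Cd244a, -0.13 to 0.30 for Slamf1 and -0.012 to 0.14 for Sh2d1a. The difference between gates ran from -0.94 to 0.81 for Cd244a, -0.22 to 0.36 for Slamf7, -0.15 to 0.047 for Sh2d1a (0.0094 without the filter), -0.33 to 0.013 for Slamf6, -0.080 to 0.0085 for Cd84, -0.020 to 0.031 for Sh2d2a and -0.094 to 0.12 for Cd48 (0.017 without the filter, 0.013 without the block), and that of Slamf1 was called without the filter (-0.42, adjusted p = 0.0441).

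Without 1 library, Cd244a in the Foxp3 split ran from -0.97 to 0.16, and it was 0.38 without the 4 libraries with Y-linked transcripts. Slamf6 there was -0.27 after thinning. In the Ccl5 split of the CD8 gate Cd84 ran from -0.040 to 0.047, at -0.025 without the filter, -0.0056 without the block, -0.067 after thinning, -0.054 without the 4 libraries and -0.058 without day 4. In that of the CD4 gate Ly9 ran from -0.057 to 0.0035 (0.0045 without the block), Slamf6 from -0.0062 to 0.019 (-0.028 without the filter, -0.0027 after thinning), Cd84 from -0.047 to 0.0038 and Sh2d2a from -0.025 to 0.10 (-0.080 without day 4). In the Slamf7 split Ly9 was -0.13 after thinning. In the Slamf6 split Slamf1 ran from -0.054 to 0.031, at 0.0036 with the gate rule only, 0.0032 without the 4 libraries and 0.29 after thinning. In the difference between the Ccl5 splits Cd84 ran from -0.017 to 0.064, at -0.0033 without the 4 libraries and -0.032 without day 4.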
